A study of Mus musculus with 6 samples.

Results

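The T cell and natural killer (NK) genes of the mouse uterus are described here as a list of 40 genes given by symbol, which was drawn up with earlier results of these data known. Of these, 38 were measured by a probe set annotated with that symbol alone, out of 18193 genes measured in this way, and Lck and Klrb1c were not. Where a gene had several probe sets, the one with the highest mean over the 6 arrays represented it. RNA came from uterine horns of C57BL6J mice with the cervix removed, taken 2 weeks after surgery, and the labels do not state the kind of surgery or the age of the mice. The SF1 group (3 arrays) had the genotype Pgrcre/+ SF1LsL/+, in which Cre made at the progesterone receptor locus switches on a transgene for the nuclear receptor SF1. The control group (3 arrays) had the genotype SF1LsL/+, that is the same silent transgene without Cre. Each array held RNA pooled from 2 uteri. Cre, the altered Pgr allele and SF1 were present together in SF1 uteri, so their parts cannot be told apart.

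T cells recognise peptides on other cells through the T cell receptor, whose signal is carried into the cell by the CD3 chains (Cd3d, Cd3e, Cd3g) and the zeta chain (Cd247). NK cells carry no such receptor and read other surface molecules through lectin-like receptors such as CD94 (Klrd1) paired with NKG2A (Klrc1), and both cell types kill with perforin and granzymes. The mouse uterus holds resident NK cells, which multiply in early pregnancy and take part in remodelling of the spiral arteries, together with T cells and other innate lymphoid cells.

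The measurements were 1-colour probe set intensities on a linear scale from an Affymetrix GeneChip Mouse Genome 430 2.0 array, and array medians lay between 149.9 and 162.2. Differences below are SF1 minus control on the scale log2(intensity + 16), and a gene is said to have risen or fallen where the adjusted p of the limma fit over all 45037 probe sets was under 0.05. The added 16 makes differences of dim genes smaller than their intensity ratios. The tissue markers Esr1, Krt18, Acta2 and Myh11 were bright in every array. For Esr1 the values were 7985.2, 7466.3 and 8059.7 in SF1 uteri, against 8886.6, 9037.5 and 8975.9 in control uteri. Of 10 uterine markers 1 rose and 3 fell, against 8.37% and 8.11% of all genes. Pgr, the locus of the Cre allele, read 1932.2, 1719.5 and 2027.4 in SF1 uteri, against 4899.4, 4746.5 and 4743.8 in control uteri. Nr5a1, the gene of SF1, was not called on either probe set (0.00 and 0.08, limma adjusted p = 0.992 and 0.535), and whether those probe sets can see the transgene is not known here. SF1 replicate 2 stood apart by its neutrophil genes, since S100a8 read 327.3, 11517.8 and 191.8 in SF1 replicates 1 to 3, against 112.1, 75.2 and 337.0 in control replicates 1 to 3. Of 7 neutrophil markers 0 were called in the limma fit, and 0 had an unadjusted p under 0.05. The 3' to 5' beta-actin ratio, a sign of RNA quality, was 2.116 to 2.336 in SF1 arrays and 2.385 to 2.58 in control arrays. The same ratio for Gapdh overlapped between groups, at 1.469 to 1.66 in SF1 arrays and 1.527 to 1.697 in control arrays. The part of RNA quality in the results was not tested.

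In SF1 uteri 14 of the 38 genes rose, 1 fell and 23 were not called. Over all 18193 genes, 8.37% rose and 8.11% fell. Centring each array on its median gave 15 risen and 1 fallen of the 38, with 1782 risen and 1056 fallen of all genes, in place of 1523 and 1475. The genes that rose encode CD3 chains (Cd3g, Cd3d, Cd3e), T cell adhesion and adaptor proteins (Cd2, Cd5, Lat), granzymes and granule proteins (Gzmb, Gzmc, Gzma, Nkg7, Ctsw), the NK receptor chain Klrd1, the interleukin 7 receptor Il7r and the integrin Itgae. The 1 gene that fell was Thy1. The median difference of the 38 genes was 0.22, against -0.05 over all genes, and 28 of the 38 differences were above 0, against 39.4% of all genes. At least a 2-fold rise was seen for 4 of the 38, which were Cd3g, Cd3d, Gzmb and Gzmc, against 2.06% of all genes, and 0 of the 38 fell that far, against 0.901%. For 21 of the 38 every SF1 array read above every control array, against 16.2% of all genes, and for 2 every SF1 array read below, against 23.7% of all genes. In whole tissue, more cells of a type and more RNA per cell cannot be told apart. The number of the 38 that rose was 10 when SF1 replicate 2 was left out and 9 when SF1 replicate 1 was. Over all genes, 6.5% and 5.63% rose in the same 2 fits, in place of 8.37%. In all, 9 of the 14 kept their call in each of the 6 fits that left out 1 array (Cd3g, Cd3d, Cd5, Lat, Gzmb, Gzmc, Nkg7, Ctsw and Klrd1).

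**Figure D1:**
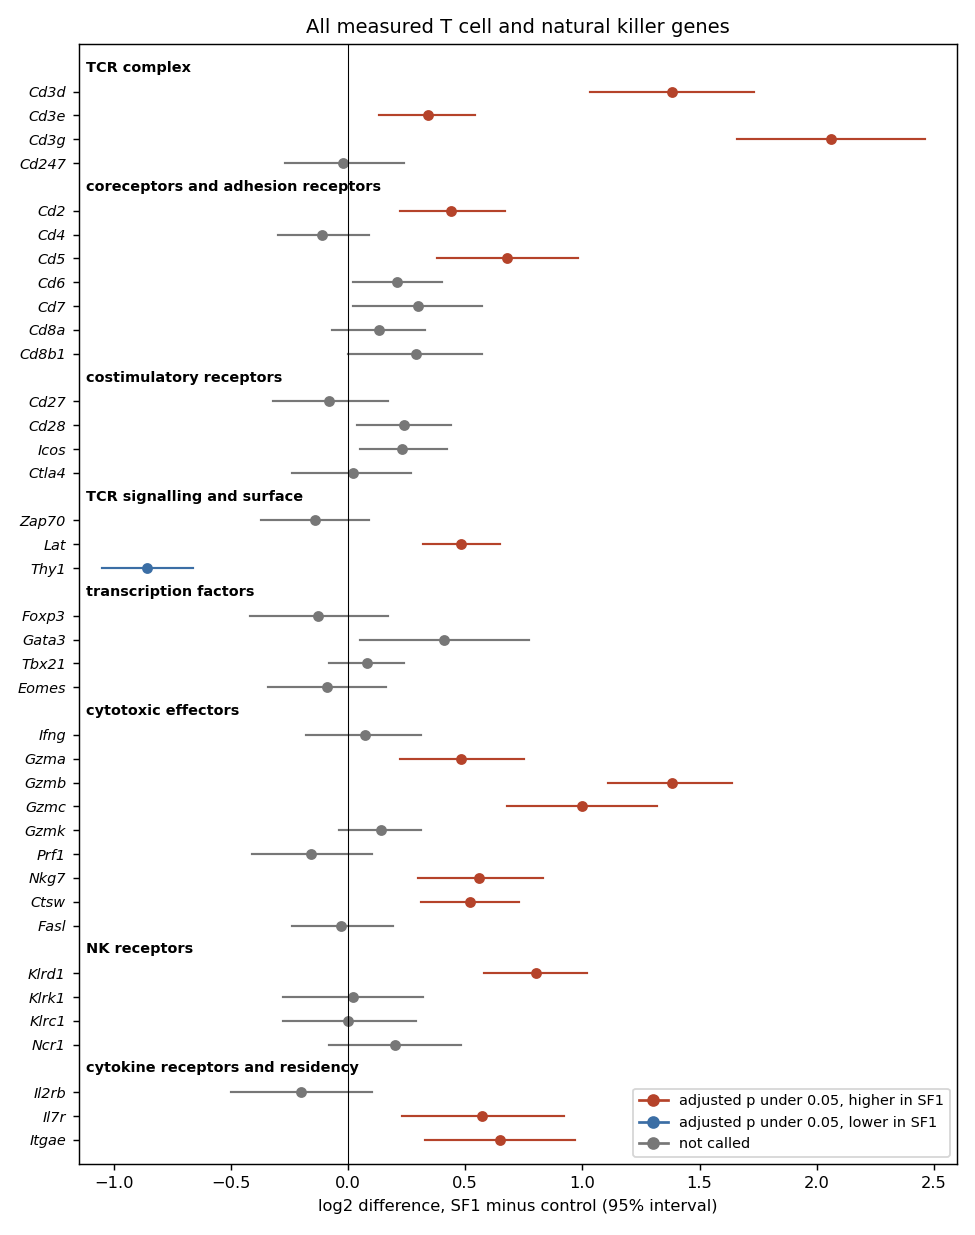
Difference between SF1 and control uteri for the 38 measured T cell and NK genes, grouped by role. The x axis is the log2 difference with its 95% interval from the limma fit (3 arrays against 3), red points rose, blue fell and grey were not called. Cd3g (2.06), Cd3d (1.38) and Gzmb (1.38) lie farthest to the right, and Thy1 (-0.86) is the only blue point.

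Among the chains of the T cell receptor complex, 3 of 4 rose. Cd3g, the gamma chain of CD3, read 534.5, 471.8 and 441.2 in SF1 replicates 1 to 3, against 88.7, 84.1 and 146.5 in control replicates 1 to 3. All SF1 arrays were above all control arrays, and control replicate 3 was the highest of its group. The difference was 2.06 ± 0.18 (SE) (limma adjusted p = 0.000142), a 4.16-fold rise on that scale. Cd3d, the delta chain, read 373.1, 385.2 and 298.3 in SF1 replicates 1 to 3, against 113.7, 105.8 and 159.8 in control replicates 1 to 3, with the same order of groups and with control replicate 3 again highest among controls. Its difference was 1.38 ± 0.15 (SE) (limma adjusted p = 0.000558). Cd3e, the epsilon chain, rose less, at 218.4, 236.2 and 206.4 in SF1 uteri, against 158.1, 188.2 and 167.6 in control uteri (difference 0.34 ± 0.09 (SE), limma adjusted p = 0.0427). The Cd3e call was kept without control replicate 2 and lost without any other array (highest adjusted p = 0.127). Cd247, the zeta chain, read 106.9, 117.7 and 104.7 in SF1 uteri, against 100.9, 100.5 and 134.5 in control uteri and its groups overlapped (-0.02, 95% interval -0.27 to 0.24, adjusted p = 0.941).

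The 3 CD3 genes lie together on mouse chromosome 9. Cd3g and Cd3d are transcribed away from each other, with 1355 bases between their annotated starts in GRCm38.p6, and the start of Cd3e lies 27825 bases beyond that of Cd3d. Their promoters are shown because these neighbours gave the largest and the smallest rise among the 14. Each line gives the 250 bases before the RefSeq start (Cd3g at chr9:44980432-44980681 on the minus strand, Cd3d at chr9:44981536-44981785 on the plus strand, Cd3e at chr9:45009612-45009861 on the minus strand, build GRCm38.p6), read 5′ to 3′ along the gene. Capitals mark matches on either strand to TGTGGT (the core bound by RUNX factors), CAGGAA (an ETS core) and CAGNTG (an E-box).
Cd3g: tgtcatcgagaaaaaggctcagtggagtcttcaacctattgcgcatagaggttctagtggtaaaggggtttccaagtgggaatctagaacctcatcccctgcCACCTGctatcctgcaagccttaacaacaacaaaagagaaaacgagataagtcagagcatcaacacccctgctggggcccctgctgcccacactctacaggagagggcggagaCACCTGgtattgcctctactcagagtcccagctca
Cd3d: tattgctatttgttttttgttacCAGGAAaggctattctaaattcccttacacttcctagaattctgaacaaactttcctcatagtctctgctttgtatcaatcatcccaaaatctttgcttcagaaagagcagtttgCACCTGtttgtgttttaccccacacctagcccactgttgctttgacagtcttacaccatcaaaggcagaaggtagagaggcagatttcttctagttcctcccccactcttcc
Cd3e: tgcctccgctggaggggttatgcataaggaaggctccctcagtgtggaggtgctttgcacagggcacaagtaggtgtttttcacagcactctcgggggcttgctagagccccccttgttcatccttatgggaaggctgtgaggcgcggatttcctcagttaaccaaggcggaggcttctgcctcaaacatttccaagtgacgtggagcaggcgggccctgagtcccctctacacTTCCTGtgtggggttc
Cd3g held 2 E-boxes, Cd3d held 1 E-box and 1 ETS core, and Cd3e held 1 ETS core. No TGTGGT was found in these 3 windows.

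**Figure D2:**
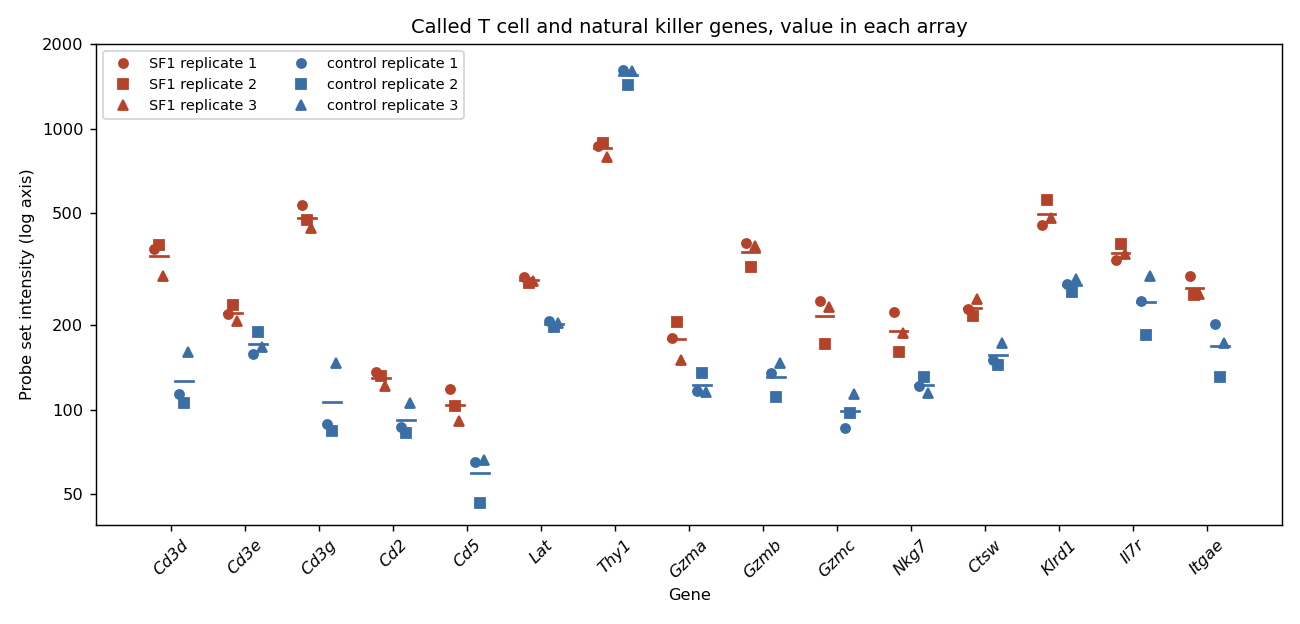
Probe set intensity (log axis) of the 15 called genes in each array, with SF1 replicates in red to the left of control replicates in blue and a bar at each group's mean. In all 14 genes that rose the SF1 points lie above the control points, and for Thy1 they lie below. Control replicate 3 is the highest control in 9 of the 14.

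Of the coreceptors and adhesion receptors, Cd5 and Cd2 rose and the other 5 were not called. Cd5, a receptor that dampens T cell receptor signals, read 118.5, 103.4 and 91.1 in SF1 uteri, against 65.3, 46.6 and 66.2 in control uteri, and control replicate 2 was the lowest array. Its difference was 0.68 ± 0.13 (SE) (limma adjusted p = 0.00975). Cd2, an adhesion receptor of T and NK cells, read 136.1, 131.3 and 121.0 in SF1 uteri, against 86.8, 82.5 and 105.3 in control uteri (0.44 ± 0.10 (SE), limma adjusted p = 0.0201). The Cd2 call was lost without SF1 replicate 1, SF1 replicate 2, control replicate 1 or control replicate 2 (highest adjusted p = 0.0765). Cd4, the coreceptor of helper T cells, read 244.5, 222.4 and 243.7 in SF1 uteri, against 244.8, 246.3 and 277.3 in control uteri (-0.11, 95% interval -0.30 to 0.09, adjusted p = 0.434). The genes of the 2 chains of the killer T cell coreceptor were also not called, with Cd8a at 0.13 (95% interval -0.07 to 0.33) and Cd8b1 at 0.29 (0.00 to 0.57). For Cd6, a relative of Cd5, and Cd7 every SF1 array read above every control array, but the differences of 0.21 and 0.30 did not pass (adjusted p = 0.14 and 0.144). Without control replicate 3 the difference of Cd7 was 0.42 and passed (adjusted p = 0.0417).

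Lat and Thy1 changed in opposite directions. Lat, the membrane scaffold on which T cell receptor signals assemble, read 296.8, 281.3 and 286.7 in SF1 uteri, against 206.0, 197.3 and 202.7 in control uteri with little spread within each group. The rise of 0.48 ± 0.07 (SE) (limma adjusted p = 0.003) kept its call without each array. Thy1, a surface protein of mouse T cells that fibroblasts and neurons also make, read 865.7, 890.5 and 793.9 in SF1 uteri, against 1612.3, 1433.2 and 1609.1 in control uteri. All SF1 arrays were below all control arrays (difference -0.86 ± 0.09 (SE), limma adjusted p = 0.000342). Of 10 markers of endometrial stroma, 5 fell and 0 rose in the same arrays, against 8.11% and 8.37% of all genes. Among the 5 were Twist2 (-1.54, adjusted p = 1.49e-05) and Hoxa11 (-1.05, adjusted p = 0.0019), which is also counted among the uterine markers. The summed intensity of the 10 was between 43396 and 46952 in SF1 arrays and between 51057 and 53425 in control arrays. Its difference was mostly that of Dcn (mean 14630 in SF1 and 18925 in control uteri) and Pdgfra (3852.1 and 6372). The 5 markers not called included the bright genes Col3a1 (0.15) and Vim (-0.02). The part of stroma in the fall of Thy1 was not tested. Zap70, the kinase that binds phosphorylated CD3 and zeta chains, read 476.4, 594.8 and 548.0 in SF1 uteri, against 552.8, 606.8 and 623.9 in control uteri, and the groups overlapped (-0.14, adjusted p = 0.381).

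None of the 4 costimulatory receptors and none of the 4 transcription factors was called on its brightest probe set. The costimulatory receptors Icos and Cd28 had groups that did not overlap, with SF1 above control by 0.23 (95% interval 0.05 to 0.42, adjusted p = 0.0907) and 0.24 (0.04 to 0.44, adjusted p = 0.11). Cd27, another costimulatory receptor, and Ctla4, which restrains costimulation, overlapped between groups (-0.08 and 0.02). Gata3, a factor of type 2 helper and innate lymphoid cells, read 91.6, 78.9 and 79.6 in SF1 uteri, against 72.2, 40.9 and 67.5 in control uteri, a difference of 0.41 (95% interval 0.05 to 0.77) that did not pass (adjusted p = 0.127). Tbx21 (T-bet), a factor of type 1 and NK cells, differed by 0.08 (95% interval -0.08 to 0.24). Eomes, which NK cells and killer T cells use, differed by -0.09 (-0.34 to 0.16), and Foxp3, the factor of regulatory T cells, by -0.13 (-0.42 to 0.17). The Foxp3 groups overlapped, with control replicate 3 at 67.9 and the other 5 arrays between 42.9 and 49.0.

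Of 9 genes of killing and effector function, 5 rose and 0 fell. Gzmb, granzyme B, a protease that starts cell death in target cells, read 391.5, 321.5 and 381.2 in SF1 replicates 1 to 3, against 135.6, 110.9 and 146.1 in control replicates 1 to 3. The groups did not overlap and the difference was 1.38 ± 0.12 (SE) (limma adjusted p = 0.00013). Gzmc, granzyme C, a neighbour of Gzmb made by NK cells and activated T cells, read 244.1, 170.8 and 231.4 in SF1 uteri, against 86.0, 97.1 and 113.9 in control uteri, with SF1 replicate 2 the lowest of its group. It rose by 1.00 ± 0.14 (SE) (limma adjusted p = 0.00219). Gzma, granzyme A, a protease of another substrate preference, read 179.5, 205.9 and 149.8 in SF1 uteri, against 116.4, 134.6 and 115.9 in control uteri and rose by 0.48 ± 0.12 (SE) (limma adjusted p = 0.0276). The Gzma call was kept without SF1 replicate 3 or control replicate 2 and lost without any of the other 4 arrays (highest adjusted p = 0.0878).

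Nkg7 and Ctsw rose as well. Nkg7, a membrane protein of cytotoxic granules, read 222.3, 160.2 and 187.9 in SF1 uteri, against 121.9, 130.8 and 114.6 in control uteri (0.56 ± 0.12 (SE), limma adjusted p = 0.0135), and SF1 replicate 1 was highest. Ctsw, a cysteine protease of NK and killer T cells, read 228.8, 215.1 and 247.9 in SF1 uteri, against 150.8, 144.4 and 173.2 in control uteri (0.52 ± 0.09 (SE), limma adjusted p = 0.00728). Perforin, the pore protein that lets granzymes in, was not called. Prf1 read 95.2, 101.0 and 106.5 in SF1 uteri, against 94.8, 128.5 and 122.1 in control uteri and the groups overlapped (-0.16, 95% interval -0.41 to 0.10, adjusted p = 0.374). Ifng, the cytokine interferon gamma, read 51.8, 53.8 and 57.7 in SF1 uteri, against 53.9, 41.6 and 59.5 in control uteri (0.07, 95% interval -0.18 to 0.31). Fasl, the ligand of the death receptor Fas, differed by -0.03 (-0.24 to 0.19) and Gzmk, granzyme K, by 0.14 (-0.04 to 0.31), and neither was called.

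The 3 granzyme genes that rose lie in 2 clusters, Gzma on chromosome 13 and Gzmb and Gzmc on chromosome 14. The starts of Gzmb and Gzmc used here lie 27677 bases apart. The annotated Gzmc gene extends upstream to chr14:56241647, so the Gzmc start used and its window lie within that gene. Their promoters are shown because all 3 held the RUNX core, so their matches to it are no test of that motif. As above, each line gives the 250 bases before the RefSeq start in GRCm38.p6 (Gzma at chr13:113100982-113101231, Gzmb at chr14:56262335-56262584 and Gzmc at chr14:56234658-56234907, all on the minus strand), with the same motifs in capitals.
Gzma: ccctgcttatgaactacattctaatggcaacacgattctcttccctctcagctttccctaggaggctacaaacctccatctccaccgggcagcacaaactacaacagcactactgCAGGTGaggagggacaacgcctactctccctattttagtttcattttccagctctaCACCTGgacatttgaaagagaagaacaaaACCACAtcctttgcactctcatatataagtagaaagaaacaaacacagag
Gzmb: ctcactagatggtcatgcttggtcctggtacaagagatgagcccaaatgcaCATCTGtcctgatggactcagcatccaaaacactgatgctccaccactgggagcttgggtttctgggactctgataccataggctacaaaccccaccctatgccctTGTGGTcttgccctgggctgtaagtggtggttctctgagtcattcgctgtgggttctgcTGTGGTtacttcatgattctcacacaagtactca
Gzmc: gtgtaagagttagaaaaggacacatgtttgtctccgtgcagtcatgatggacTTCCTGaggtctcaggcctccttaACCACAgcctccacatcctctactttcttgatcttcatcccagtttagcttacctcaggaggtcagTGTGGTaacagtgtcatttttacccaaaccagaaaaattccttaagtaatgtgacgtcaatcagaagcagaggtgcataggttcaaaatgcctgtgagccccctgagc
Gzma held 1 match to TGTGGT, and Gzmb and Gzmc held 2 each. Gzma also held 2 E-boxes, Gzmb 1 E-box and Gzmc 1 ETS core.

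RefSeq gave 30 promoter windows for 26 of the 38 measured genes, and all 32851 windows of the table served as background. TGTGGT or its reverse complement was found in 10 of the 30 windows, against 14.0% of all windows, CAGGAA in 13, against 25.7%, and CAGNTG in 23, against 44.8%. Among the 10 windows of genes that rose, these matches numbered 4, 7 and 8. Those 10 windows did not cover all 14 genes that rose. AAGGTCA, a core sequence that SF1 binds, was found in 2 of the 30 windows, against 4.08% of all, and in 0 of the 10 windows of genes that rose. Matches to the other 3 motifs searched were found in 2 windows (the GATA core AGATAA, 9.99% of all), 2 windows (the T-box core GGTGTGA, 3.33%) and 1 window (the AP-1 site TGANTCA, 6.75%). The motifs were searched on both strands without regard to overlap, and a match is a run of letters and not a measured site.

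Of 4 measured NK receptor genes, Klrd1 rose. It encodes CD94, the chain shared by the inhibitory and activating CD94 receptors, and read 454.5, 556.6 and 481.2 in SF1 replicates 1 to 3, against 280.3, 261.3 and 292.6 in control replicates 1 to 3. The groups lay far apart relative to their spread (0.80 ± 0.10 (SE), limma adjusted p = 0.00087). Klrk1, the activating receptor NKG2D, read 246.7, 350.0 and 328.8 in SF1 uteri, against 335.8, 282.3 and 286.4 in control uteri and its groups overlapped (0.02, 95% interval -0.28 to 0.32). Ncr1, NKp46, an activating receptor of NK cells and other innate lymphoid cells, differed by 0.20 (-0.08 to 0.48, adjusted p = 0.302). Klrc1, NKG2A, the partner of CD94, differed by 0.00 on its brightest probe set, which a second probe set did not share, as described below.

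Il7r and Itgae rose among the 3 genes of cytokine receptors and tissue residency. Il7r, the interleukin 7 receptor that keeps T cells and innate lymphoid cells alive, read 340.0, 388.1 and 357.3 in SF1 uteri, against 243.2, 184.3 and 298.8 in control uteri (0.57 ± 0.15 (SE), limma adjusted p = 0.0392). Controls spread widely, and the Il7r call was kept without control replicate 3 and lost without any other array (highest adjusted p = 0.115). Itgae, the integrin CD103 that binds E-cadherin and holds lymphocytes in epithelium, read 299.8, 255.5 and 257.2 in SF1 uteri, against 202.5, 131.2 and 172.7 in control uteri (0.65 ± 0.14 (SE), limma adjusted p = 0.018). Its call was lost without SF1 replicate 1 (adjusted p = 0.0722), and its probe set is of a kind (suffix s) that can match more than 1 transcript. Epcam, an epithelial marker, also rose in SF1 uteri (0.38, adjusted p = 0.0132, lost without SF1 replicate 1 at 0.0541). The epithelial markers Krt8 (0.25, adjusted p = 0.183) and Krt18 (-0.08, adjusted p = 0.522) were not called, and both overlapped between groups. The part of epithelium in the rise of Itgae was not tested. Il2rb, the receptor chain shared by interleukins 2 and 15, differed by -0.20 on its brightest probe set (95% interval -0.50 to 0.10).

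Several genes gave different answers on different probe sets. Of the 38 genes, 13 had more than 1 probe set (33 in all) and 25 had 1. Among the 11 of these 13 whose brightest probe set was not called higher, 5 had another probe set that was (Klrc1, Icos, Cd28, Cd247 and Il2rb), against 3.64% of the 8268 genes in that position. Counted over any probe set, 19 of the 38 genes rose, against 10.0% of all genes.

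The widest gap was that of Klrc1. Its dimmer probe set read 85.8, 104.3 and 112.4 in SF1 uteri, against 33.5, 33.8 and 31.9 in control uteri, a rise of 1.24 ± 0.10 (SE) (limma adjusted p = 9.49e-05). The brightest probe set read 60.6, 77.0 and 73.8 in SF1 uteri, against 69.2, 84.6 and 58.4 in control uteri with no order between the groups. For Icos another probe set read 172.7, 208.4 and 142.6 in SF1 uteri, against 77.0, 63.6 and 82.5 in control uteri (1.07 ± 0.14 (SE), limma adjusted p = 0.00127). For Cd28 the dimmer probe set read 68.6, 74.8 and 67.3 in SF1 uteri, against 41.4, 33.7 and 31.8 in control uteri (0.74 ± 0.09 (SE), limma adjusted p = 0.0011), in the same direction as the brighter one. Cd247 rose on 1 of its 4 probe sets, which read 148.0, 115.5 and 114.8 in SF1 uteri, against 69.2, 72.8 and 88.2 in control uteri (0.61 ± 0.12 (SE), limma adjusted p = 0.0101). Each of these 4 calls was kept without each array. Il2rb rose by 0.37 on its dimmer probe set (limma adjusted p = 0.027), which was kept without control replicate 3 and lost without any other array (highest adjusted p = 0.0859).

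Other disagreements ran the other way. The second probe sets of Il7r (0.27) and Itgae (0.15) were not called. None of the 5 probe sets of Cd8a, the 3 of Zap70, or the pairs for Cd4, Eomes, Prf1 and Fasl was called. The position of each probe set within its transcript was not used here.

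**Figure D3:**
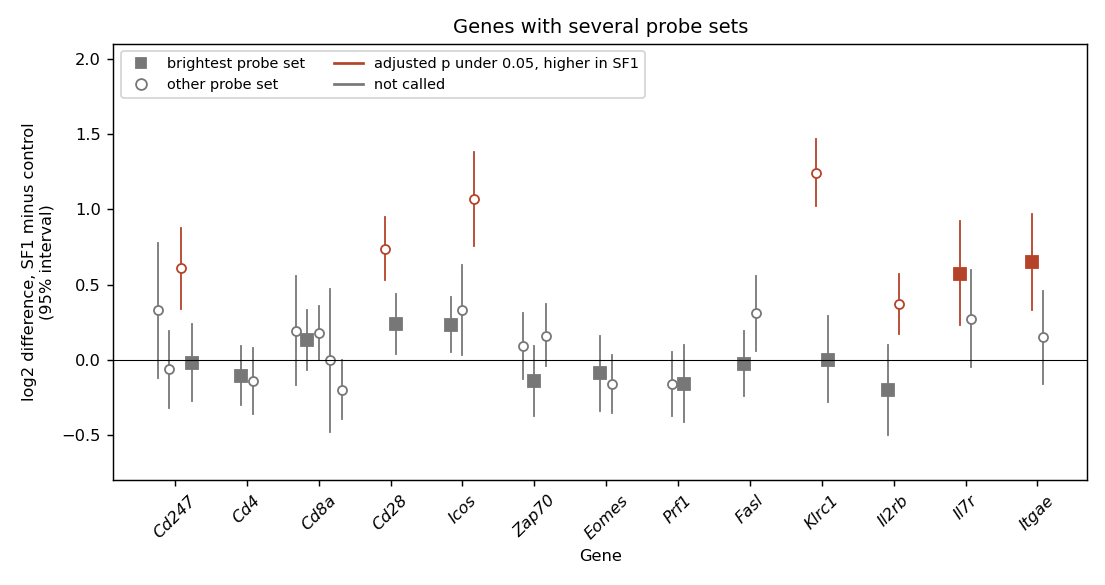
Difference between SF1 and control uteri (y axis, log2 with 95% interval, 3 arrays against 3) for each probe set of the 13 genes with several. Squares are the brightest probe set of a gene and open circles the others, with red for those that rose. The red open circles of Klrc1 (1.24), Icos (1.07), Cd28 (0.74), Cd247 (0.61) and Il2rb (0.37) stand above grey squares.

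Genes of all leukocytes rose in the same arrays. Of 12 such markers 9 rose and 0 fell, against 8.37% and 8.11% of all genes, with a median difference of 0.91. The largest rises were those of Cd52 (1.25 ± 0.18 (SE), limma adjusted p = 0.00263) and Itgal (1.19 ± 0.16 (SE), limma adjusted p = 0.00176), an integrin chain of leukocytes. The summed intensity of the 12 was between 8003 and 12407 in SF1 arrays and between 4196 and 5609 in control arrays. Among SF1 arrays, the order differed between these markers and the T cell and NK genes that rose. All 12 leukocyte markers read highest among SF1 arrays in replicate 2, whereas the 14 T cell and NK genes that rose read highest in replicate 1 (8 genes), replicate 2 (5) or replicate 3 (1). The 10 macrophage markers read highest in SF1 replicate 1 (5 markers), replicate 2 (4) or replicate 3 (1), much as the 14 genes did. Among controls, replicate 3 was highest for 11 of the 12 leukocyte markers and 9 of the 14 genes. Control replicate 2 was lowest for 10 of the 12 and 10 of the 14. The part of the other leukocytes in the rise of the 14 genes was not tested.

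**Figure D4:**
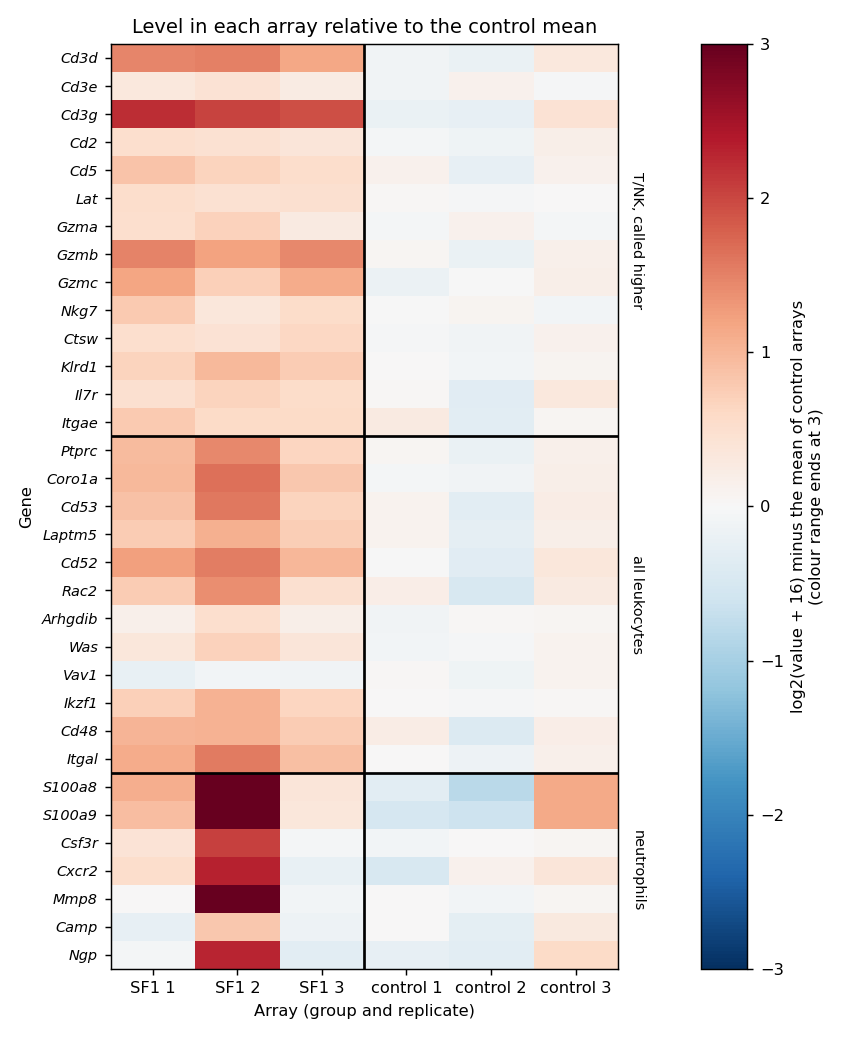
Level of the 14 T cell and NK genes that rose, 12 markers of all leukocytes and 7 neutrophil markers in each array (columns, SF1 replicates left of control replicates), as log2(value + 16) minus the mean of the control arrays. Red is above and blue below that mean, with colours ending at 3. The column of SF1 replicate 2 is darkest for the neutrophil markers and for the leukocyte markers other than Vav1, and not for Cd3g, Gzmb or Gzmc.

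Markers of other cell types gave the values below, to be read beside the 8.37% of all genes that rose and the 8.11% that fell. Of 9 markers of B cells and plasma cells, 0 were called in the limma fit, although 2 were higher at an unadjusted p under 0.05, and their median difference was 0.03. Their summed intensity, between 5665 and 7441 in SF1 arrays and between 2748 and 4867 in control arrays, was mostly that of Jchain, the joining chain of secreted antibodies, which read 4933.1, 5199.7 and 6650.0 in SF1 uteri, against 3623.8, 1928.4 and 4018.1 in control uteri (0.86, adjusted p = 0.0552). Jchain passed without control replicate 2 or control replicate 3 (lowest adjusted p = 0.0388). Of 8 markers of lymph node and thymus, 0 were called (2 lower at an unadjusted p under 0.05), and their summed intensity was between 692 and 876 in SF1 arrays and between 841 and 868 in control arrays. Of 10 macrophage markers, 7 rose and 1 fell, with C1qa at 1.02 and C1qc at 0.94 and with Mertk at -0.53. Their sum was between 8863 and 10950 in SF1 arrays and between 4909 and 7239 in control arrays. The number that rose was 2 without SF1 replicate 1 and 3 without SF1 replicate 2. No marker in these lists was listed at the lowest value of 1, and the deposited values hold no detection calls.

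Genes outside the 40 that act with them were described from lists written for this purpose, of which 96 of 118 genes were measured. In all 25 rose and 5 fell, with a median difference of 0.12. Over all genes 8.37% rose and 8.11% fell, with a median difference of -0.05, and each list below is to be read beside these shares. Without control replicate 1 the number that rose was 16. Among cytokines that recruit or sustain lymphocytes, 8 of 20 rose and 0 fell, with Cxcl10 (1.82) and Cxcl9 (1.76), ligands of the T cell chemokine receptor Cxcr3, at the top. Il15, the cytokine on which NK cells depend, is named after its values were seen. It read 423.0, 362.8 and 448.7 in SF1 replicates 1 to 3, against 204.2, 181.6 and 183.1 in control replicates 1 to 3, a rise of 1.05 ± 0.10 (SE) (limma adjusted p = 0.000223) with no overlap between groups. Ccl5, a chemokine that T and NK cells themselves make, and Cxcl16, the ligand of Cxcr6, are named in the same way and rose by 1.31 and 0.86 (adjusted p = 0.00055 and 0.00023).

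Of 16 homing and adhesion receptors, 5 rose and 0 fell. Itgal is also among the markers of all leukocytes above, so its rise is counted in both lists. Itgal led, at 469.7, 644.4 and 400.8 in SF1 uteri, against 209.4, 185.5 and 231.0 in control uteri, followed by Cd69, a marker of activation and tissue residency, which read 56.2, 65.5 and 48.4 in SF1 uteri, against 14.9, 14.2 and 19.3 in control uteri (1.17 ± 0.11 (SE), limma adjusted p = 0.000205). Ccr6 (1.10) and Cxcr6 (0.46), which also rose, are named after their values were seen. Ccr7 (0.45, adjusted p = 0.0429), which is named for the same reason, lost its call without any 1 of the 6 arrays (highest adjusted p = 0.113). Cxcr3, the receptor for Cxcl9 and Cxcl10, differed by 0.21 (95% interval 0.02 to 0.41) and was not called.

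Of 21 further granzymes, NK receptors and their adaptors, 6 rose and 0 fell. The largest differences were those of Fcer1g (0.99, adjusted p = 0.0285) and Tyrobp (0.91, adjusted p = 0.0466), adaptors that NK cells share with myeloid cells. Both read highest in SF1 replicate 2. Fcer1g lost its call without SF1 replicate 1, control replicate 1 or control replicate 2 (highest adjusted p = 0.0641), and Tyrobp without any array but control replicate 3 (0.114). The other 4 that rose, named after their values were seen, were Hcst (0.67), the adaptor of NKG2D, and the lectin-like receptors Klrb1b (0.80), Klrb1f (0.80) and Klra7 (0.63). Klrb1b and Klra7 belong to families of near copies, and their probe sets can match more than 1 member. Gzmd, Gzme, Gzmf and Gzmg, the granzymes beside Gzmc, were not called, with no array above 30 intensity units.

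Of 21 partners of T cell receptor signalling, 1 rose and 3 fell, against 8.37% and 8.11% of all genes. Their median difference was -0.07, against -0.05 over all genes. Without SF1 replicate 2 the number that fell was 1, and without SF1 replicate 3 the number that rose was 2. Lcp2 (SLP-76), the adaptor that binds Lat through its partners and is also made by myeloid cells, read 202.0, 336.7 and 164.9 in SF1 uteri, against 91.7, 93.8 and 102.6 in control uteri (1.10 ± 0.21 (SE), limma adjusted p = 0.00969) and was highest in SF1 replicate 2. Fyn, a kinase of T cells that many other cells make, read 744.4, 732.6 and 755.1 in SF1 uteri, against 1234.8, 1236.6 and 1360.6 in control uteri and fell (difference -0.77 ± 0.08 (SE), limma adjusted p = 0.000338). Plcg1, a phospholipase found in most cells, fell too (-0.44, adjusted p = 0.016), a call lost without SF1 replicate 2 (0.0559). The third that fell, Ptpn22, a phosphatase that dampens T cell receptor signals, is named after its values were seen (-0.33, adjusted p = 0.0385), and its call was kept without control replicate 3 and lost without any other array (highest adjusted p = 0.115).

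**Figure D5:**
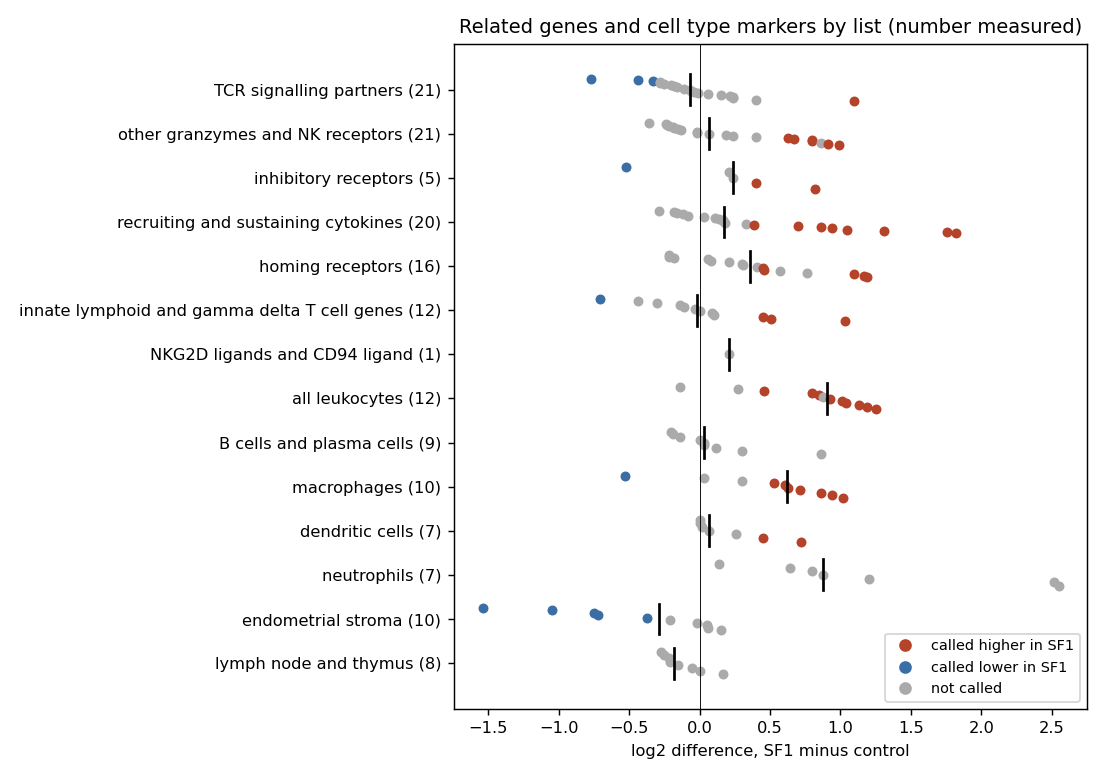
Difference between SF1 and control uteri (x axis, log2) for genes related to T and NK cells and for markers of other cell types, 1 point per gene, with the number measured after each list's name and a black line at each median. Red points rose, blue fell and grey were not called. The medians of all leukocytes (0.91) and macrophages (0.62) lie to the right of those of T cell receptor signalling partners (-0.07) and B cells and plasma cells (0.03).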

How the data were processed

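Each of 6 arrays measured RNA pooled from 2 uteri, per the labels' protocols. The authors deposited linear intensities, 1 per probe set (1 to 25324.74), and their background correction, normalization and summarization are not given in the sources used here. Of 45101 probe sets, 64 controls were set aside. A platform annotation table gave 34945 probe sets 1 symbol, 932 several and 9160 none. The probe set with the highest mean log2 value represented a gene, and no filter on low values was applied. Values were transformed as log2(intensity + 16) and fitted with limma 3.58.1 in R 4.3.3 (lmFit, eBayes), with Benjamini-Hochberg adjustment over 45037 probe sets. Adjusted p-values are from this fit, or from the same fit repeated under the alternative or without the array that the sentence names. The fit was also run on simulated data, with independent noise in each probe set and no noise shared between probe sets. Its outcome is not given here. Python 3.11.15, pandas 2.3.3 and matplotlib 3.10.9 made tables and figures, and promoters came from RefSeq (GRCm38.p6). The labels name separate pools, but not whether they were processed together, and p-values measure only the spread between these pools. The genes and lists were chosen with earlier results of these data known. All 40 genes are accounted for, and in each further list up to 2 called genes with the largest rise and 2 with the largest fall are named. Other genes of those lists, called or not, are also named outside this rule, and some called genes are not named. The number of arrays limits the precision (median SD of log2 values 0.1 in SF1 and 0.108 in control). Alternatives were centring on medians, quantile normalization, pseudocounts of 1 and 64, dropping dim probe sets, averaging all probe sets of a gene, a replicate block, trended robust eBayes, an adjusted p under 0.01, and each array left out.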

Additional observations from a re-analysis of the deposited data

How the results depend on the processing

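In place of 14 T cell and NK genes called higher, between 9 and 13 were called without 1 array, 8 at an adjusted p under 0.01, 11 with the replicate number as a block and between 10 and 15 under the other alternatives, where the 10 came from a filter that left 16 of the 38 genes. Of all genes, 6.26% rose with the replicate block. The share was 12.8% of the 11649 genes that the filter left, and between 7.32% and 9.79% under the remaining alternatives. Thy1 fell under every alternative run. Over all genes, at an adjusted p under 0.01 the genes called higher numbered 848 and the genes called lower 710, and with the replicate block 932 were lower. Without 1 array, between 1025 and 1294 genes rose and between 908 and 1118 fell. Same-numbered arrays did not deviate together (correlations of -0.063, -0.101 and -0.184), so the replicate numbers are taken as names only. Higher calls made up 50.8% of all calls as reported, 58.0% after quantile normalization and 62.8% after median centring. Of the related genes, 15 rose when dim probe sets were dropped, 14 rose and 1 fell at an adjusted p under 0.01, and 20 rose and 3 fell with the replicate block. Dropping dim probe sets also took related genes out of the test, so the 15 are not out of all those measured. The shares of all genes given above for the same settings apply here too. Without 1 array, between 16 and 23 rose and between 1 and 5 fell.

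In 548 comparisons of single T cell and NK genes with the main fit, 483 kept direction and call, 32 lost the call, 7 gained it and 26 turned sign. The stricter threshold, the replicate block, the trended robust fit and the dropping of dim probe sets leave a difference as it is. They can change only its call, so many of the 548 could not turn sign. All 26 were in 10 uncalled genes, with an adjusted p of at least 0.146. Cd247 was 0.03 after quantile normalization, 0.04 after median centring and 0.22 for the mean of its probe sets, and Fasl was 0.03, 0.03 and 0.14. With the mean of probe sets Zap70 was 0.04 and Il2rb 0.08. Without 1 array the differences ranged from -0.08 to 0.11 for Cd247, -0.08 to 0.11 for Ctla4, -0.23 to 0.02 for Foxp3, -0.16 to 0.02 for Eomes, -0.05 to 0.15 for Ifng, -0.09 to 0.02 for Fasl, -0.07 to 0.17 for Klrk1 and -0.10 to 0.11 for Klrc1. The cause of these changes was not tested.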

Other observations

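Inhibitory receptors and genes of innate lymphoid and gamma delta T cells changed in part. Of 5 measured inhibitory receptors, 2 rose and 1 fell, against 8.37% and 8.11% of all genes. Btla, which restrains B and T cells, read 167.8, 150.2 and 128.6 in SF1 uteri, against 78.8, 81.1 and 70.8 in control uteri (0.82 ± 0.10 (SE), limma adjusted p = 0.00117), and all SF1 arrays were above all control arrays. Havcr2 (TIM-3) rose by 0.40 (adjusted p = 0.0362), a call kept without control replicate 2 and lost without any other array (highest adjusted p = 0.121). Lag3, a receptor for MHC class II, was the 1 that fell, at 104.9, 87.0 and 109.8 in SF1 uteri, against 125.7, 161.0 and 166.3 in control uteri (-0.52, adjusted p = 0.0248). The Lag3 call was lost without SF1 replicate 1, SF1 replicate 2, control replicate 2 or control replicate 3 (highest adjusted p = 0.0808). Pdcd1, PD-1, differed by 0.24 (95% interval 0.05 to 0.42) and was not called.

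Of 12 measured genes of innate lymphoid and gamma delta T cells, 3 rose and 1 fell, against 8.37% and 8.11% of all genes. Il18r1, a receptor chain for interleukin 18, read 577.1, 432.7 and 436.6 in SF1 uteri, against 225.6, 149.2 and 341.7 in control uteri (1.03, adjusted p = 0.0278) and lost its call without any SF1 array or control replicate 1 (highest adjusted p = 0.102). Stat4, which carries interleukin 12 signals, rose by 0.51 (adjusted p = 0.0203), a call lost without control replicate 1 or 3 (0.062). Il17a, a cytokine of gamma delta and helper T cells, rose by 0.45 (adjusted p = 0.0376) and is named after its value was seen, with its call lost without any array but SF1 replicate 3 (0.122). Zbtb16, a factor of innate-like lymphocytes that progesterone and glucocorticoids are also known to induce, fell by 0.71 on the log2 scale (adjusted p = 0.028), a call kept without SF1 replicate 3 or control replicate 3 and lost without any of the other 4 arrays (0.0898). Of 7 dendritic cell markers, 2 rose and 0 fell, Zbtb46 (0.72, adjusted p = 0.00168) and Ccr7, which is also counted among the homing receptors. The only measured ligand of NKG2D, Ulbp1, differed by 0.21 (95% interval 0.03 to 0.40) and was not called.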
